A study of Arabidopsis thaliana with 12 samples.

Results

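BCAT4 (AT3G19710) and AT2G31790 are genes of aliphatic glucosinolate synthesis in Arabidopsis thaliana, and their transcript levels are described here in 6 genotypes. Their probe sets were found by annotation, as every probe set annotated to BCAT4, which serves methionine chain elongation, or to AT2G31790, a glucosinolate glucosyltransferase. That gave 2 of the 22746 probe sets that are not controls, 1 for each gene, and both passed the filter on dim probe sets that left 15922 for testing.

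The arrays were Affymetrix ATH1, hybridised with RNA from the aerial parts of plants 2 weeks old, with 2 arrays for each genotype. The mutant groups were cpr5, npr1, the cpr5npr1 double mutant, cpr5scv1 and the cpr5npr1svi1 triple mutant, and they were set against the wild type Col-0 (WT). All plants grew at 23 C and 70% humidity under fluorescent light with a photoperiod of 16 h. The cpr5 mutation is carried by 4 of the 5 mutant groups, those with scv1 or svi1 among them, so neither scv1 nor svi1 was measured in plants without cpr5. The labels describe cpr5npr1 as fully resistant to P. parasitica. They describe cpr5scv1 as a suppressor line that is as susceptible to P. parasitica as the wild type, slightly more susceptible to P. syringae, and resistant to B. cinerea. They give svi1 only within the triple mutant, and the alleles, the number of plants pooled per array and the number of lines per genotype are not stated in the labels. No label says that the 2 arrays of a genotype hold separate plantings. The p-values therefore rest on a spread between arrays that may be no more than technical. CPR5 and NPR1 had no probe set annotated to them alone and are not analysed here, so the mutated genes gave no check of the labels.

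Aliphatic glucosinolates are sulphur-containing defence compounds that Brassicaceae make from methionine. BCAT4 is the aminotransferase that removes the amino group of methionine and so starts the lengthening of its side chain. Once the side chain is set, the core pathway builds the thiohydroximate, a glucosyltransferase adds the glucose, and a sulphotransferase completes the molecule. BCAT4 thus stands at the entry of the pathway and AT2G31790 near the end of core synthesis. CPR5 loss causes spontaneous lesions and standing defence responses, and NPR1 is a co-activator of responses to salicylic acid.

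The values are MAS5 signals on a linear scale, scaled by the depositors so that the mean of each array without its lowest and highest 2% is 100.01. The lowest signal of either gene in any array was 112, against a 95th percentile of 6.59 for 15 bacterial control sets (Dap, Lys, Phe, Thr and Trpn). Whether these controls were spiked in was not checked. The median signal of the 8 arrays with cpr5 was 41.3 to 43.5, against 36.8 to 38.8 in the npr1 and WT arrays. When every array was instead scaled to the same median, the median difference of all probe sets from WT moved by between -0.195 and -0.192 on the log2 scale in the 4 genotypes with cpr5, and the number of probe sets called lower in cpr5 was 914, against 343 with the deposited scaling. The leaf markers of the fixed list had no named probe set. In an added list of 7 photosynthetic genes, 6 had signals between 2219.8 and 5805 in every array and LHCB4.3 lay between 159 and 656. The root markers EXPA7 (2.00 to 18.3) and PYK10 (165 to 836), the trichome gene TRY (11.2 to 45.1) and the guard cell gene FMA (54.8 to 91.4) were also measured. PYK10 stood at 165 and 773 in the 2 WT arrays. The part of these markers in the results was not tested.

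BCAT4 had its lowest levels in 3 of the 4 genotypes that carry cpr5. The signals were 958 and 971 in cpr5 arrays and 848 and 1009.6 in cpr5npr1 arrays. They were 903 and 944 in cpr5scv1 arrays. Every one of these 6 values lay below every value of the other genotypes: 1152 and 1156 in cpr5npr1svi1 arrays, 1303 and 1244 in npr1 arrays, and 1367 and 1525 in WT arrays. The share of all probe sets whose arrays separate in this way was not counted, here or for the separate arrays described below. As means, BCAT4 stood at 964 ± 9.18 in cpr5, 929 ± 114 in cpr5npr1, 923 ± 28.7 in cpr5scv1, 1154 ± 2.56 in cpr5npr1svi1, 1273 ± 41.7 in npr1 and 1446 ± 112 in WT (SD, n = 2 each).

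AT2G31790 had its highest level in WT and its lowest in cpr5scv1, and no genotype overlapped with another. How many of all probe sets separate every genotype in this way was not counted, so whether the separation is unusual cannot be told. The signals were 150.2 and 112 in cpr5scv1 arrays and 204 and 176 in cpr5npr1svi1 arrays. They were 217 and 211 in cpr5 arrays and 223 and 227 in cpr5npr1 arrays. The npr1 arrays gave 269 and 247, and the WT arrays gave 336 and 386. As means, AT2G31790 stood at 131 ± 27.3 in cpr5scv1, 189.9 ± 19.8 in cpr5npr1svi1, 214 ± 4.32 in cpr5, 225 ± 3.15 in cpr5npr1, 258 ± 16.0 in npr1 and 361 ± 35.3 in WT (SD, n = 2 each). In the bulk tissue sampled here, fewer cells of a type that expresses a gene and less of its RNA per cell cannot be told apart.

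**Figure D1:**
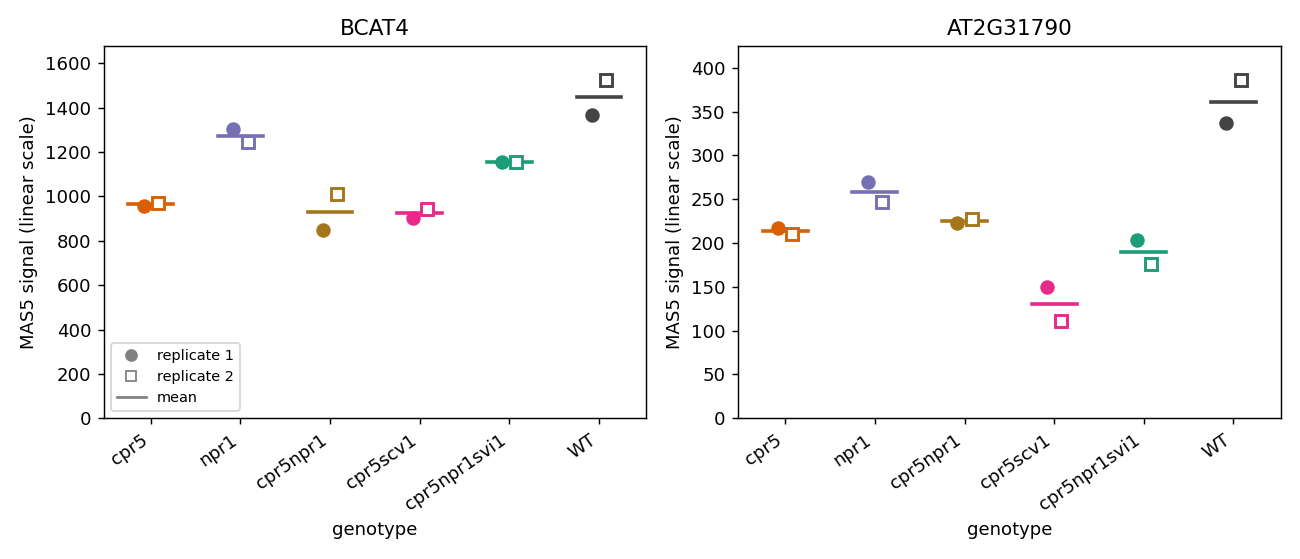
MAS5 signal (linear scale, vertical axis) of BCAT4 and AT2G31790 in each array of 6 genotypes; filled circles are replicate 1, open squares replicate 2 and bars the mean. WT is the highest genotype in both panels, cpr5, cpr5npr1 and cpr5scv1 lie together for BCAT4 at means of 923 to 964, and cpr5scv1 stands lowest for AT2G31790 at a mean of 131.

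A moderated F test over the 6 genotypes passed the threshold of an adjusted p of 0.05 for both genes, which 16.8% of all probe sets tested did. The adjusted p from limma was 0.0267 for BCAT4 and 0.00313 for AT2G31790. The call of AT2G31790 held when any 1 array was left out (adjusted p 0.00560 to 0.0147). For BCAT4 the call went when 1 array was omitted, either WT replicate 2 (0.0704), cpr5 replicate 1 (0.0598) or 2 (0.0589), npr1 replicate 1 (0.0616) or 2 (0.0542), cpr5scv1 replicate 1 (0.0815) or 2 (0.0700), or cpr5npr1svi1 replicate 2 (0.0510).

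The comparison of cpr5 with WT asks what loss of CPR5 alone does. Both genes fell in cpr5, a call that 2.15% of probe sets tested shared in the lower direction. BCAT4 fell by 0.58 on the log2 scale (SE 0.141, 95% interval -0.89 to -0.27, adjusted p = 0.0291 from limma) and AT2G31790 fell by 0.76 (SE 0.176, 95% interval -1.14 to -0.37, adjusted p = 0.0239). Expressed as ratios, BCAT4 in cpr5 was 0.668 of its WT level and AT2G31790 was 0.592 of its WT level. Both replicate numbers gave the same sign, with log2 differences of -0.51 and -0.65 for BCAT4 and of -0.64 and -0.88 for AT2G31790. Neither call held in every fit that left out 1 array. BCAT4 was no longer called on omitting WT replicate 1 (0.0555) or 2 (0.108), cpr5 replicate 1 (0.147) or 2 (0.130), and cpr5scv1 replicate 1 (0.0504) or 2 (0.0503). AT2G31790 lost it without WT replicate 2 (0.0872), cpr5 replicate 1 (0.112) and cpr5 replicate 2 (0.127). Quantile normalization moved BCAT4 more than AT2G31790, with log2 differences of -0.35 (adjusted p = 0.0929) and -0.75 (0.0248). Scaling to one median shifts all probe sets of an array by the same amount, so both genes had to move alike. The log2 difference was then -0.78 for BCAT4 (0.0120) and -0.95 for AT2G31790 (0.00768).

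The npr1 single mutant was tested to see whether NPR1 loss without cpr5 moved either gene. Neither gene was called, in a comparison where 0.00628% of probe sets were called in either direction. Both npr1 arrays lay below both WT arrays for each gene, an order whose share over all probe sets was not counted. The log2 difference of BCAT4 was -0.18 (95% interval -0.49 to 0.13, adjusted p = 0.982 from limma). That of AT2G31790 was -0.48 (95% interval -0.87 to -0.10), with an unadjusted p of 0.0193 and an adjusted p of 0.824. The interval of AT2G31790 lies below 0, while its adjustment runs over 15922 probe sets.

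The double mutant was first set against WT. That difference holds the effects of both mutations, so it cannot show whether the fall in cpr5 needs NPR1. Both genes fell in cpr5npr1 against WT, where 2.05% of probe sets were called lower. BCAT4 fell by 0.64 on the log2 scale (95% interval -0.95 to -0.33, adjusted p = 0.0192 from limma), and AT2G31790 fell by 0.68 (95% interval -1.07 to -0.29, adjusted p = 0.0385). The call of BCAT4 was lost without WT replicate 2 (0.0760) and without cpr5npr1 replicate 1 (0.159). The call of AT2G31790 was the least steady of the 7 from WT: it held only without cpr5scv1 replicate 1 or 2 (lowest adjusted p 0.0338), and leaving out any of the other 10 arrays lost it (adjusted p 0.0509 to 0.194).

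Set against cpr5 itself, cpr5npr1 showed no call for either gene, and 0.044% of probe sets were called in either direction. The log2 difference was -0.06 for BCAT4 (95% interval -0.37 to 0.25, adjusted p = 1.00 from limma) and 0.07 for AT2G31790 (95% interval -0.31 to 0.46, adjusted p = 1.00). BCAT4 was 848 and 1009.6 in cpr5npr1 arrays, which spans the 958 and 971 of cpr5 arrays. AT2G31790 was higher in both cpr5npr1 arrays, at 223 and 227, than in the cpr5 arrays, at 217 and 211.

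The effect of cpr5 in plants that lack NPR1 was also measured, as cpr5npr1 against npr1, where 0.798% of probe sets were called lower. BCAT4 had a log2 difference of -0.46 (95% interval -0.77 to -0.15, unadjusted p = 0.00800, adjusted p = 0.104 from limma) and all cpr5npr1 arrays lay below the npr1 arrays. With the replicate number as a block the adjusted p was 0.0292, which is past the threshold; over all alternatives it ran between 0.0292 and 0.481. AT2G31790 had a log2 difference of -0.20 (95% interval -0.59 to 0.19, adjusted p = 0.643). Its arrays were separate but close, 223 and 227 in cpr5npr1 against 269 and 247 in npr1.

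The interaction, the cpr5 effect in npr1 plants minus the cpr5 effect in plants with NPR1, tests directly whether NPR1 changes the response to cpr5. Neither gene was called, and 0.0251% of probe sets were. For BCAT4 it was 0.12 on the log2 scale (95% interval -0.32 to 0.56, adjusted p = 1.00 from limma). For AT2G31790 it was 0.56 (95% interval 0.01 to 1.11, unadjusted p = 0.0469, adjusted p = 1.00). That value stands beside a cpr5 effect of -0.20 in npr1 plants and of -0.76 in plants with NPR1.

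The cpr5scv1 line held the lowest level of AT2G31790 in the series. Both genes fell in cpr5scv1 against WT, a comparison in which 9.55% of probe sets were called lower. AT2G31790 fell by 1.48 on the log2 scale (SE 0.176, 95% interval -1.87 to -1.09, adjusted p = 0.000257 from limma), a ratio of 0.359 to WT. The call held in all 19 alternatives, with adjusted p up to 0.0111. BCAT4 fell by 0.65 (95% interval -0.96 to -0.33, adjusted p = 0.00828), a call lost without cpr5scv1 replicate 1 (0.0635). The 2 arrays of cpr5scv1 differed from each other more for AT2G31790 than those of any other genotype, by 0.43 on the log2 scale, and the log2 differences by replicate number were -1.16 and -1.79.

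Against npr1, 7.53% of probe sets were lower in cpr5scv1, and both genes were among them. AT2G31790 fell by 0.99 on the log2 scale (95% interval -1.38 to -0.61, adjusted p = 0.00322 from limma), a call that held in all 19 alternatives. BCAT4 fell by 0.46 (95% interval -0.78 to -0.15, adjusted p = 0.0446). The call of BCAT4 was lost in 8 of the 12 fits that left out 1 array: without cpr5 replicate 1 (0.0670) or 2 (0.0669), npr1 replicate 1 (0.186) or 2 (0.116), cpr5scv1 replicate 1 (0.189) or 2 (0.133), and cpr5npr1svi1 replicate 1 (0.0610) or 2 (0.0607).

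What scv1 adds to cpr5 is read from cpr5scv1 against cpr5, in which 0.477% of probe sets were called lower and neither gene was. AT2G31790 was 150.2 and 112 in cpr5scv1 arrays, against 217 and 211 in cpr5 arrays. The log2 difference was -0.72 (95% interval -1.11 to -0.33, unadjusted p = 0.00185, adjusted p = 0.104 from limma). With the replicate number as a block the adjusted p was 0.0290, and over all alternatives it ran between 0.0290 and 0.448. BCAT4 was 903 and 944 in cpr5scv1 arrays, against 958 and 971 in cpr5 arrays. Its log2 difference was -0.06 (95% interval -0.38 to 0.25, adjusted p = 0.944). Set beside cpr5npr1, AT2G31790 in cpr5scv1 was again lower, by a log2 difference of -0.80 (adjusted p = 0.0921, and 0.0246 with the replicate block, the lowest of a range up to 0.463).

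In the triple mutant only AT2G31790 was called against WT, where 4.08% of probe sets were called lower. AT2G31790 fell by 0.93 on the log2 scale (95% interval -1.32 to -0.54, adjusted p = 0.00698 from limma), a ratio of 0.525 to WT. The call was lost without cpr5npr1svi1 replicate 2 (0.0676) and held without any other array. BCAT4 had a log2 difference of -0.32 (95% interval -0.64 to -0.01, unadjusted p = 0.0441, adjusted p = 0.179). Its 1152 and 1156 in cpr5npr1svi1 arrays lay below the 1367 and 1525 of WT arrays.

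What svi1 adds to cpr5npr1 differed in sign between the genes, although neither was called and 1.15% of probe sets were called in either direction. BCAT4 was higher in both cpr5npr1svi1 arrays than in both cpr5npr1 arrays, at 1152 and 1156 against 848 and 1009.6. The log2 difference was 0.32 (95% interval 0.01 to 0.63, unadjusted p = 0.0462, adjusted p = 0.469 from limma). AT2G31790 was lower in both cpr5npr1svi1 arrays, at 204 and 176, than in the cpr5npr1 arrays, at 223 and 227. The log2 difference was -0.25 (95% interval -0.64 to 0.14, adjusted p = 0.756). The scv1 effect minus the svi1 effect was -0.38 for BCAT4 (95% interval -0.82 to 0.06) and -0.47 for AT2G31790 (95% interval -1.02 to 0.07). The adjusted p was 0.698 for both, in a test that called 0.0251% of probe sets.

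**Figure D2:**
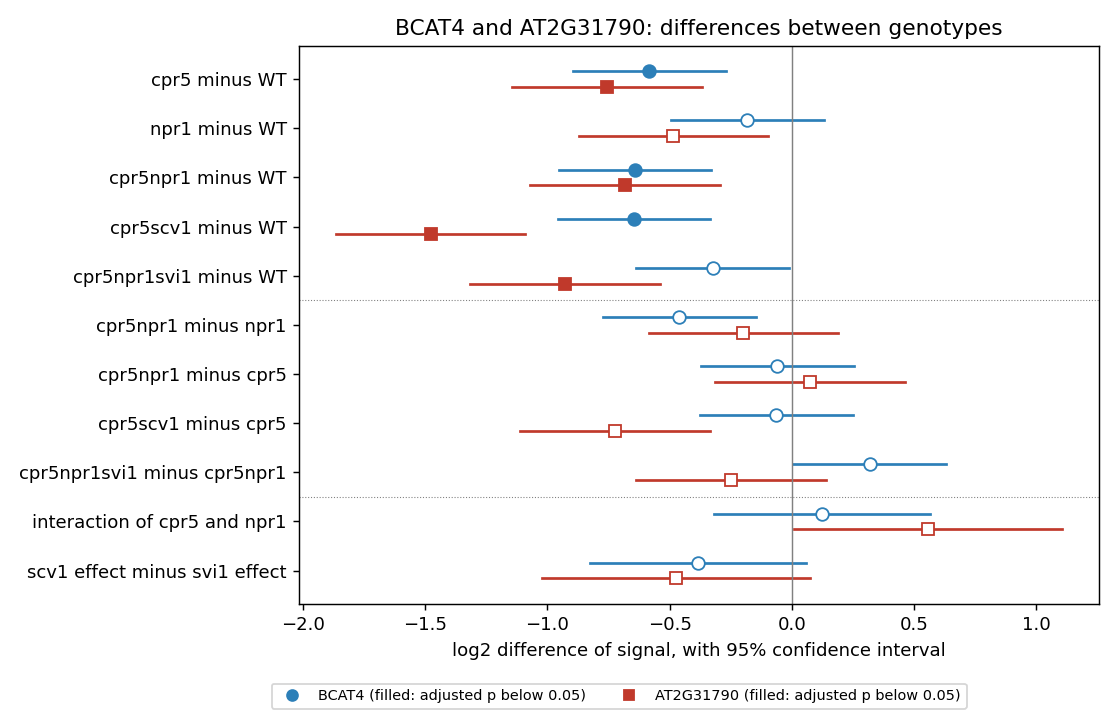
Log2 difference of signal (horizontal axis) with its 95% confidence interval for BCAT4 (circles) and AT2G31790 (squares) in 11 comparisons; filled symbols have an adjusted p below 0.05. All 7 filled symbols are falls from WT, the lowest being AT2G31790 in cpr5scv1 at -1.48, and no comparison between mutants or test of a difference of effects shown is filled.

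Ordered by mean level, BCAT4 ran cpr5scv1, cpr5npr1, cpr5, cpr5npr1svi1, npr1 and WT from low to high. No pair of neighbours in that order passed the threshold, with adjusted p from limma of 0.998, 1.00, 0.524, 0.629 and 0.982 along it. AT2G31790 ran cpr5scv1, cpr5npr1svi1, cpr5, cpr5npr1, npr1 and WT. No pair of neighbours passed there either, with adjusted p of 0.176, 0.815, 1.00, 0.643 and 0.824. The triple mutant is the third highest for BCAT4 and next to the lowest for AT2G31790, and cpr5npr1 lies below cpr5 for BCAT4 and above it for AT2G31790.

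The distance from WT was then set side by side for both genes within each array. The log2 change from the WT mean was lower for AT2G31790 than for BCAT4 by 0.59 and 1.08 in the 2 cpr5scv1 arrays and by 0.50 and 0.71 in the 2 cpr5npr1svi1 arrays. In cpr5 arrays the gap was 0.14 and 0.20, and in npr1 arrays 0.27 and 0.33, again with AT2G31790 lower. In cpr5npr1 the gap had no common sign, at 0.07 with AT2G31790 higher in replicate 1 and 0.15 with it lower in replicate 2. The WT arrays themselves stood 0.02 to either side of their mean. The gap between the genes was not tested.

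Over all 12 arrays the log2 signals of the genes had a Pearson r of 0.727 and a Spearman rho of 0.713, given as a description, since the points share 6 genotypes and a common scaling. Without cpr5npr1 replicate 1 and WT replicate 2, the arrays farthest from the BCAT4 median, r was 0.735. Over the 10 mutant arrays alone it was 0.457. AT2G31790 ranked 982 of 15921 probe sets by its likeness to BCAT4, and BCAT4 ranked 1209 by its likeness to AT2G31790. With BCAT4, 444 probe sets (2.79%) had r above 0.8, and with AT2G31790, 591 (3.71%); 116 were shared.

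**Figure D3:**
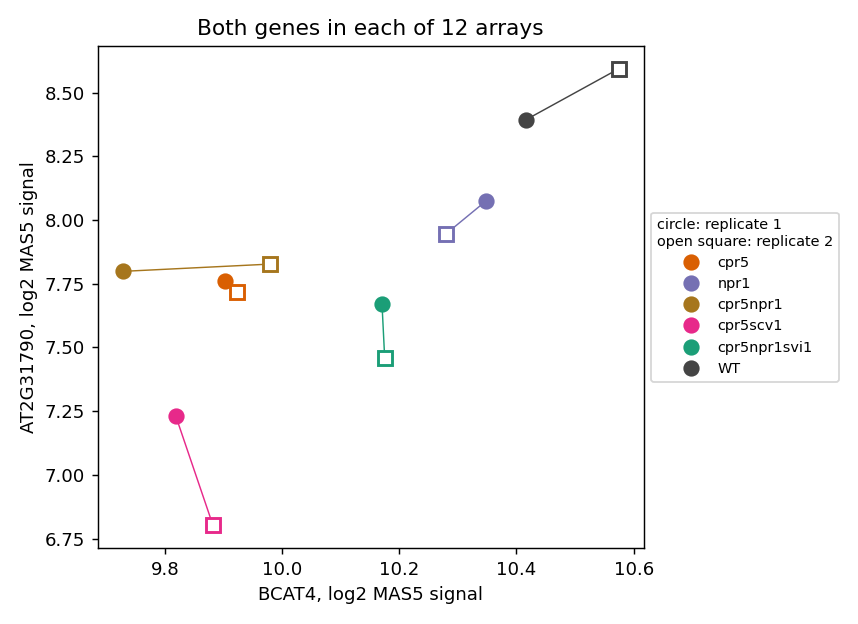
Log2 MAS5 signal of BCAT4 (horizontal axis) against AT2G31790 (vertical axis) in each of 12 arrays, coloured by genotype, with the 2 arrays of a genotype joined. WT lies at the upper right, and cpr5 and cpr5npr1 lie close together. The cpr5scv1 arrays lie lower on the AT2G31790 axis than others with a like BCAT4 signal. The cpr5npr1svi1 arrays lie between those of cpr5npr1 and npr1 on the BCAT4 axis and below both on the AT2G31790 axis.

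The named probe sets most like BCAT4 over the 12 arrays were AT2G42220 (r = 0.960), AT5G08050 (0.957), AT3G50685 (0.951), TPI (0.943) and PRK (0.939). PRK is phosphoribulokinase of the Calvin cycle and TPI is a triosephosphate isomerase. Genes in this paragraph were chosen by r over these same arrays, so their likeness over the genotypes follows from the choice. PRK had means of 2277 in cpr5, 2034 in cpr5scv1 and 2357 in cpr5npr1svi1, against 3376 in WT. Its adjusted p from limma was 0.0652 in cpr5, 0.0112 in cpr5scv1 and 0.0759 in cpr5npr1svi1. The named probe sets most like AT2G31790 were AT1G74730 (0.954), AT1G76450 (0.952), AT1G10650 (0.940), AT3G48460 (0.934) and AT3G21670 (0.931). AT3G21670 covered a wider range than AT2G31790 itself, with a mean of 157 in cpr5scv1, 334 in cpr5npr1svi1 and 376 in cpr5npr1, against 849 in WT. The highest likeness to both genes at once was that of AT4G20760, AT1G29070, HPR, AT5G14970 and AT1G74070, with the lower of each pair of r values between 0.865 and 0.874. HPR is hydroxypyruvate reductase of photorespiration, with means of 2304 in cpr5 and 1845 in cpr5scv1, against 3394 in WT.

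Photosynthetic genes were measured beside these. The 7 genes of the added leaf list had a median log2 difference from WT of -0.49 in cpr5, -0.28 in npr1, -0.40 in cpr5npr1, -0.41 in cpr5scv1 and -0.11 in cpr5npr1svi1, with none called. All 7 values were below 0 in cpr5, npr1 and cpr5npr1, 6 were in cpr5scv1 and 5 in cpr5npr1svi1. The median over all probe sets lay between -0.01 and 0.04 in these comparisons, and the share of them below 0 was not counted. Of all probe sets tested, 2.15% were called lower in cpr5, 2.05% in cpr5npr1, 9.55% in cpr5scv1 and 4.08% in cpr5npr1svi1. In npr1 0.00628% were called in either direction. The r of the leaf genes with BCAT4 over the 12 arrays ran from 0.333 for LHCB4.2 to 0.890 for PSAN, a photosystem I subunit. With AT2G31790 it ran from -0.08 to 0.664 for the same genes. The part of the leaf genes' shift in the levels of BCAT4 and AT2G31790 was not tested.

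The rest of the aliphatic pathway could be read only in part. Of 36 genes in the lists for chain elongation, core synthesis, side chain modification, and regulators and transport, 9 had a probe set annotated to them alone and 8 were tested. BCAT4 was the only 1 of 9 chain elongation genes with such a probe set. Apart from BCAT4 and AT2G31790, 6 genes were tested. None of the 6 was called higher in any of the 9 comparisons of genotypes, and the single gene called lower was AOP1, in cpr5scv1. The scaling changed these counts. Over all 8 aliphatic genes, 3 were called lower in cpr5scv1 against WT, which became 6 after scaling to one median. Over all 15922 probe sets tested, the count called lower there went from 1520 to 2664. After quantile normalization 1 of the 8 was called higher in each of cpr5, cpr5npr1 and cpr5scv1. The counts called higher over all probe sets were then 828, 760 and 1784. The median log2 difference of the 6 from WT was -0.01 in cpr5, -0.15 in npr1, -0.09 in cpr5npr1, -0.47 in cpr5scv1 and -0.24 in cpr5npr1svi1.

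In core synthesis, GSTU20, a glutathione transferase ascribed to the aliphatic pathway, followed BCAT4 more closely than AT2G31790 did (r = 0.853), without passing the test. It was 1033 and 1371 in cpr5 arrays, 990.1 and 1448 in cpr5scv1 arrays, 1462 and 2064 in cpr5npr1svi1 arrays, and 1745 and 2209 in WT arrays. Replicate 1 was the lower array in each of these genotypes, and the log2 difference from WT was -0.72 in cpr5 (adjusted p = 0.129 from limma), -0.71 in cpr5scv1 (0.0796) and -0.18 in cpr5npr1svi1 (0.744). UGT74B1, the glucosyltransferase that acts on thiohydroximates of several glucosinolate classes, was 261 and 228 in cpr5scv1 arrays, against 310 and 409 in WT arrays. Its log2 difference there was -0.55 (adjusted p = 0.134), and the SE of a difference was 0.176 for AT2G31790 against 0.242 for UGT74B1.

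In side chain modification, AOP1, a 2-oxoglutarate-dependent dioxygenase gene related to AOP2 and AOP3, also had its lowest level in cpr5scv1. Of all probe sets tested, 9.55% were called lower in cpr5scv1 than in WT. AOP1 was 49.7 and 54.0 in cpr5scv1 arrays, 112 and 103 in cpr5 arrays, 82.3 and 80.0 in cpr5npr1svi1 arrays, and 137 and 94.4 in WT arrays. AOP1 fell by 1.13 on the log2 scale in cpr5scv1 against WT (adjusted p = 0.00234 from limma), a call kept in all 19 alternatives. It also fell by 1.05 against cpr5 (adjusted p = 0.0368), but 10 of the 12 fits without 1 array lost that call (highest adjusted p 0.267), the 2 without a WT array being the exception. AT2G25450, placed in this list by its locus code, had higher values in cpr5: it was 1313 and 1650.1 in cpr5 arrays, against 901 and 1225 in WT arrays, with a log2 difference of 0.49 (adjusted p = 0.169).

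The glucosinolate transporter genes showed no call. GTR1 had log2 differences from WT of 0.06 in cpr5 and -0.39 in cpr5scv1, and GTR2 of 0.48 in cpr5 and 0.46 in cpr5scv1. The lists for indolic synthesis and for glucosinolate breakdown had no gene with a probe set of its own, so it was not measured here whether the falls extend to them.

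**Figure D4:**
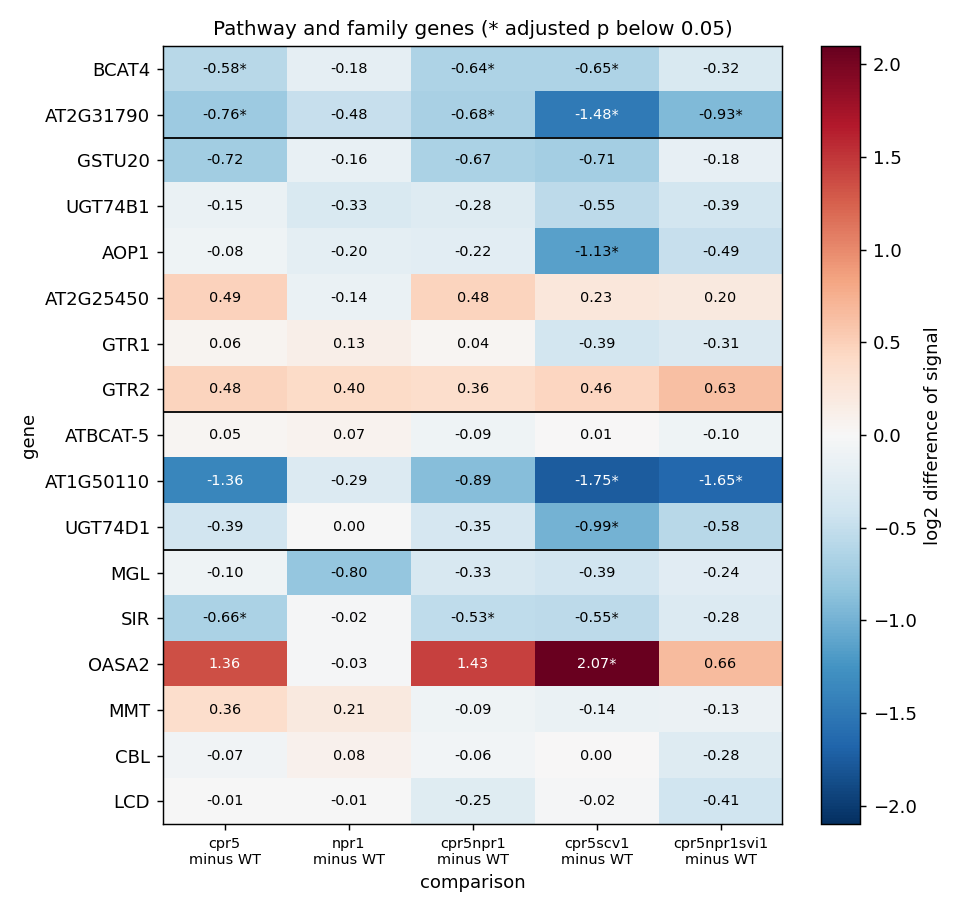
Log2 difference of signal from WT (colour and printed value) of BCAT4, AT2G31790 and 15 other tested genes in 5 mutant genotypes; a star marks an adjusted p below 0.05, and lines part the 2 genes, the other aliphatic genes, their relatives, and sulphur and methionine genes. BCAT4 and AT2G31790 carry 7 of the stars, AOP1 has 1 in cpr5scv1, and GSTU20 is at -0.72 in cpr5 without a star. AT1G50110, UGT74D1, SIR and OASA2 carry the other stars, that of OASA2 marking a rise.

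Relatives of each gene were compared for the same genotypes. Among branched-chain aminotransferase genes, BCAT4 had the log2 difference of -0.58 in cpr5 given above, while ATBCAT-5 had log2 differences from WT between -0.10 and 0.07 over the 5 mutants (adjusted p = 0.929 in cpr5 from limma). AT1G50110, in the same list by locus code, was dim, at 20.9 and 11.7 in cpr5scv1 arrays, 24.7 and 11.4 in cpr5npr1svi1 arrays and 66.4 and 41.6 in WT arrays. It fell by 1.75 on the log2 scale in cpr5scv1 (adjusted p = 0.0172), and fell by 1.65 in cpr5npr1svi1 (adjusted p = 0.0362). Of all probe sets tested, 9.55% were called lower in cpr5scv1 and 4.08% in cpr5npr1svi1. The call in cpr5scv1 was lost without WT replicate 1 (0.103) or cpr5scv1 replicate 2 (0.126). The call in cpr5npr1svi1 was lost in 6 of 12 such fits: without WT replicate 1 (0.188), npr1 replicate 1 (0.0508) or 2 (0.0503), cpr5npr1 replicate 1 (0.0502) or 2 (0.0501), and cpr5npr1svi1 replicate 2 (0.255).

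UGT74D1, a glucosyltransferase gene listed beside AT2G31790 in the order of named genes, also had its lowest mean in cpr5scv1. In that genotype 9.55% of probe sets were called lower than in WT. UGT74D1 was 96.2 and 116 in cpr5scv1 arrays, 137 and 145 in cpr5npr1svi1 arrays, 178 and 144 in cpr5 arrays, and 249 and 177 in WT arrays. UGT74D1 fell by 0.99 on the log2 scale in cpr5scv1 against WT (adjusted p = 0.0105 from limma), and had a log2 difference of -0.39 in cpr5 (0.348). The call was lost without WT replicate 1 (0.0733) or cpr5scv1 replicate 1 (0.0847).

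The nearest named genes on either side gave the local background. Of the 5 named neighbours on each side, 7 of 10 were tested for BCAT4 and 9 of 10 for AT2G31790. In cpr5 against WT none of these 16 was called, where 1044 of 15922 probe sets were called higher and 343 lower. In cpr5npr1 against WT, 1 neighbour of BCAT4 was called lower and 1 of AT2G31790 higher. Over all probe sets 969 were called higher and 327 lower there. In cpr5npr1svi1 against WT, 2 neighbours of BCAT4 were called lower and none of AT2G31790, with 1255 higher and 650 lower over all. In cpr5scv1 against WT, 2 neighbours of BCAT4 were called lower, and of AT2G31790 1 was called higher and 2 lower. The background shares in that comparison were 9.55% called lower and 12.8% called higher. In that comparison BCAT4 itself had a log2 difference of -0.65, against a median of -0.00471 over its neighbours. AT2G31790 had -1.48, against a median of 0.09 over its neighbours.

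Sulphur and methionine genes were set beside BCAT4 because methionine is its substrate. SIR, the sulphite reductase of sulphate assimilation, was nearly as like BCAT4 (r = 0.915) as its closest matches. It was 541 and 627 in cpr5 arrays, 644 and 628 in cpr5npr1 arrays, 600 and 661 in cpr5scv1 arrays, and 862 and 981 in WT arrays. SIR fell by 0.66 on the log2 scale in cpr5 (adjusted p = 0.0180 from limma), fell by 0.53 in cpr5npr1 (0.0475) and fell by 0.55 in cpr5scv1 (0.0205). In npr1 its log2 difference was -0.02 and in cpr5npr1svi1 it was -0.28, neither called. Of all probe sets tested, 2.15% were called lower in cpr5, 2.05% in cpr5npr1 and 9.55% in cpr5scv1.

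The SIR calls moved with single arrays. In cpr5 the SIR call went on omitting WT replicate 2 (0.0747), cpr5 replicate 1 (0.148) or 2 (0.0520), and in cpr5scv1 on omitting WT replicate 2 (0.0971), cpr5scv1 replicate 1 (0.133) or 2 (0.0578). That in cpr5npr1 was lost in all 12 such fits (adjusted p 0.0620 to 0.182). OASA2, an O-acetylserine (thiol) lyase gene, had r below 0 with both genes (-0.884 with BCAT4 and -0.764 with AT2G31790). It was 58.9 and 91.4 in cpr5scv1 arrays, against 25.5 and 11.9 in WT arrays, and rose by 2.07 on the log2 scale (adjusted p = 0.00540), a call lost without cpr5scv1 replicate 2 (0.0521). In cpr5scv1 12.8% of all probe sets tested were called higher than in WT. MGL, a methionine gamma-lyase gene, MMT, CBL and LCD were not called in any of the 9 comparisons. Over all 15922 probe sets, those comparisons called from 1, in npr1 against WT, to 3565, in cpr5scv1 against WT.

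**Figure D5:**
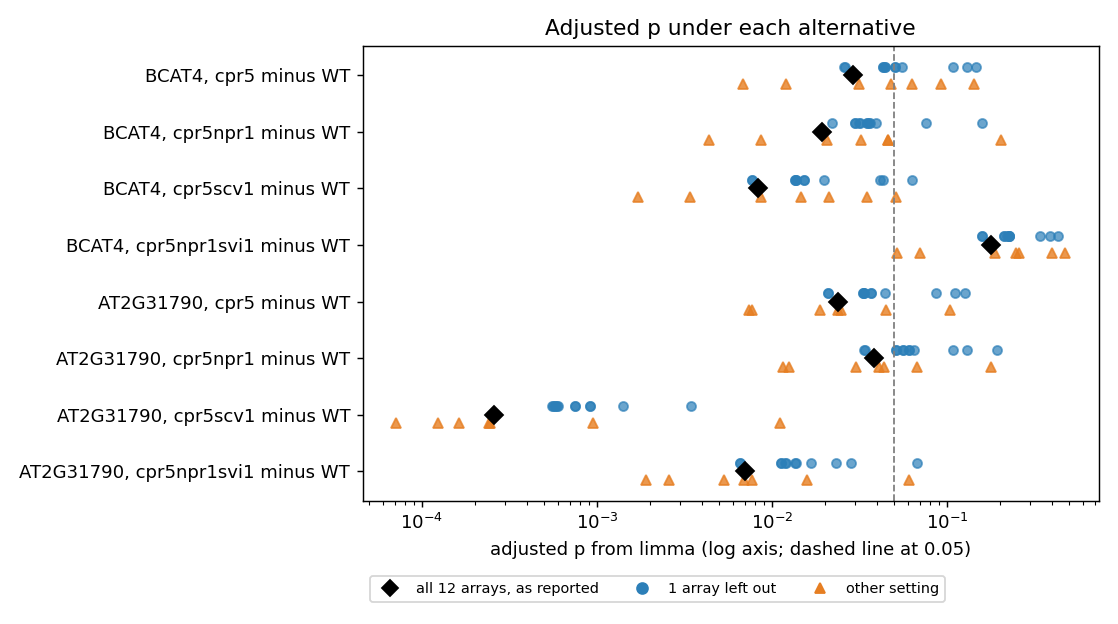
Adjusted p from limma (log axis) for BCAT4 and AT2G31790 in 4 mutants against WT, with all arrays (diamonds), with 1 array left out (circles) and under other settings (triangles); the dashed line is the threshold of 0.05. Only AT2G31790 in cpr5scv1 stays left of the line under every alternative, and BCAT4 in cpr5npr1svi1 stays right of it under every one.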

How the data were processed

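The deposited file holds the MAS5 signal intensity of 22810 probe sets on 12 arrays, which the authors computed with MAS5, per the submitters' processing notes. Its version and settings are not stated in the labels. Every value was above 0, and the trimmed mean was 100.01 in every array, so the deposited scaling was kept. Precision is limited by the 2 arrays per genotype. Signals were taken to log2 without a pseudocount. The 64 control sets were left out, and then the 30% of the others with the lowest mean log2 signal over all arrays.

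One model was fitted with limma 3.58.1 under R 4.3.3, with the variance prior of eBayes following mean intensity: 6 group means, 6 residual and 4.65 prior degrees of freedom, and 17 contrasts, of which 15 are the pairs of genotypes. Called means a p below 0.05 after Benjamini-Hochberg adjustment over the probe sets of that contrast. Every adjusted p in the text is from such a fit. "Higher", "rose" and "fell" are used of called differences unless values are given.

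Of the 22746 other probe sets, the platform annotation gives 1 gene for 13513, several for 503 and none for 8730, and 13436 were linked to a locus of the assembly TAIR10.1, used only for names and gene order. Genes named were both members, every listed gene with a probe set annotated to it alone (the brightest of several), the 5 named probe sets with the highest Pearson r over the 12 arrays with each member and with both, and 5 named neighbours on each side. Members and lists were chosen with earlier results of these data known, and the leaf and sulphur lists marked as added were drawn up after the annotation was read.

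Replicate numbers are those of the titles. The difference between replicates 1 and 2 correlated positively in each of the 15 pairs of genotypes (r 0.175 to 0.363). On that ground the numbers count as pairs, but the fit reported has no term for them and does not use the pairing. A fit with the replicate number as a block was among the 8 planned kinds of alternative. The others were quantile normalization, scaling to one median, no filter, a pseudocount of 32, no intensity trend, only the groups compared, and leaving out each array in turn.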

Additional observations from a re-analysis of the deposited data

How the results depend on the processing

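All 19 alternatives kept the calls of AT2G31790 in cpr5scv1 against WT and against npr1. Fitting only the groups compared lost the others, with log2 differences from WT of -0.58 (cpr5, adjusted p = 0.144), -0.64 (cpr5npr1, 0.204) and -0.65 (cpr5scv1, 0.0509) for BCAT4 and of -0.76 (cpr5, 0.105), -0.68 (cpr5npr1, 0.178) and -0.93 (cpr5npr1svi1, 0.0611) for AT2G31790. Without the intensity trend, BCAT4 in cpr5 (-0.58, 0.0631), AT2G31790 in cpr5npr1 (-0.68, 0.0673) and the F test of BCAT4 (5.67) lost theirs, as did, after quantile normalization, BCAT4 in cpr5 (-0.35, 0.0929) and its F test (5.01). With the replicate block, BCAT4 in cpr5npr1 against npr1 (-0.46, 0.0292) and AT2G31790 in cpr5scv1 against cpr5 (-0.72, 0.0290) passed, as did BCAT4 in cpr5 against npr1 (-0.40, 0.0433) and AT2G31790 in cpr5scv1 against cpr5npr1 (-0.80, 0.0246); the block changed no other call of either gene. BCAT4 in cpr5scv1 against cpr5npr1 turned to 0.052 after quantile normalization. The call of BCAT4 in cpr5scv1 against npr1 was lost after quantile normalization (0.0980), without the filter (0.0727), without the trend (0.0818) and with only those groups (0.0683). The causes were not tested.

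With 1 array left out, the BCAT4 differences from WT ran from -0.66 to -0.50 in cpr5, -0.77 to -0.52 in cpr5npr1 and -0.72 to -0.57 in cpr5scv1, and its F from 4.84 to 8.56. Those of AT2G31790 ran from -0.86 to -0.66 in cpr5, -0.78 to -0.58 in cpr5npr1 and -1.04 to -0.82 in cpr5npr1svi1. BCAT4 changed sign in cpr5npr1 against cpr5 (-0.19 to 0.066), in cpr5scv1 against cpr5npr1 (-0.13 to 0.12) and in the interaction (-0.00345 to 0.25).

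The count of probe sets called lower against WT in cpr5, 343, was 59 with only those groups, 230 without the trend, 914 after scaling to one median and 1102 with the block, and 70 to 355 with 1 array left out. Likewise it ran from 44 to 987 in cpr5npr1 (327), 660 to 2664 in cpr5scv1 (1520) and 153 to 1463 in cpr5npr1svi1 (650). With only those groups fitted, 0, 0, 2 and 0 of the 8 aliphatic genes were called lower in cpr5, cpr5npr1, cpr5scv1 and cpr5npr1svi1, against 2, 2, 3 and 1 as reported. Over all 15922 probe sets, those fits called 59, 44, 693 and 153 lower, against 343, 327, 1520 and 650 as reported. With 2 arrays a genotype, the SE of a difference was 0.141 for BCAT4 and 0.176 for AT2G31790, which sets the size of change that can be told from none.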

Other observations

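AOP3, the gene of a 2-oxoglutarate-dependent dioxygenase that makes hydroxyalkyl glucosinolates in some accessions, lay below the filter and was not tested. Its signal was 136 in WT replicate 1, against 11.0 in WT replicate 2 and 3.68 to 14.4 in the 10 mutant arrays. WT replicate 1 also had the lowest PYK10 signal, 165, against 773 in WT replicate 2. For BCAT4 and AT2G31790 the same array lay below WT replicate 2, at 1367 against 1525 and at 336 against 386, and above every mutant array.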
